A study of Mus musculus with 81 samples.

Results

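PARP family members and the partner gene Dtx3l were followed in RNA-seq libraries of mouse macrophages with and without conditional knockout of histone H3.3 genes. The members were looked up by gene symbol among the 54079 to 55450 genes listed in each count table. These 10 were chosen: Parp1, Parp2, Parp3, Parp8, Parp9, Parp10, Parp11, Parp12, Parp14 and Dtx3l. Other PARP enzymes, Parp4 and Parp16 among them, were left out of the 10 and counted as a separate list. The choice was made with earlier results of these data known. All 10 passed the filter on low counts in each of the 5 experiments. By what the genes are known for, 6 were grouped as interferon-linked (Parp9, Dtx3l, Parp10, Parp11, Parp12 and Parp14) and 3 as DNA repair members (Parp1, Parp2 and Parp3), and Parp8 was kept apart.

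The libraries came from C57BL/6 mice of 8 to 10 weeks. WT mice were H3f3a fl/fl and H3f3b fl/fl without Cre, and cKO mice carried the same floxed alleles with LysM cre/cre, a Cre placed in the Lyz2 locus that is active in myeloid cells. Loss of H3.3 and the presence of the LysM Cre knock-in therefore cannot be told apart in these groups. Bone marrow cells were cultured in L929-conditioned medium into bone marrow-derived macrophages (BMDMs) and were sampled on days 3, 5 and 7, on day 8 with or without interferon gamma (IFNg) for 12 h, or on day 6 after culture from day 0 with no antibody, an isotype control antibody or an antibody to the type I interferon receptor chain IFNAR1. The remaining groups were peritoneal macrophages, 3 sets of WT and cKO BMDMs, and BMDMs of 3 double knockouts in which the cKO was combined with deletion of Sting, Mavs or Irf7. There were 3 libraries in each group, except for 2 in each cKO group of day 8. Of the 81 libraries, 2 were in no group, since their title and library name disagree on IFNg. The labels call the replicates biological without naming the animals behind them, and p-values measure the spread between these libraries.

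PARP enzymes take ADP-ribose from NAD and attach it to proteins, either as single units or as chains. Parp1, Parp2 and Parp3 are activated by DNA breaks and mark the damaged site for repair factors. The interferon-linked members are induced by interferons in many cell types, macrophages among them, and most of them attach single ADP-ribose units. Parp9 works with Dtx3l, an E3 ubiquitin ligase that binds it, and Parp14 has been linked to the response of macrophages to IFNg.

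Parp9, Dtx3l and Parp14 lie together on chromosome 16 of GRCm38 in the GENCODE M21 annotation. Parp14 spans bases 35832874 to 35871544 on the minus strand, Dtx3l spans 35926511 to 35939151 on the minus strand, and Parp9 spans 35938470 to 35972605 on the plus strand. Parp9 and Dtx3l are arranged head to head and share 458 exon bases, which are 9.4% of the exon bases of Parp9 and 8% of those of Dtx3l. The libraries carried no strand information, so reads in these shared bases cannot be assigned to one gene of the pair. Parp10 lies on chromosome 15 from 76231174 to 76243441 and shares 205 exon bases, 4.8% of its exon length, with Plec on the same strand. Parp11 and Parp12 are both on chromosome 6, at 127446840 to 127494261 on the plus strand and 39086410 to 39118349 on the minus strand. The DNA repair members and Parp8 are on chromosomes 1 (Parp1), 14 (Parp2), 9 (Parp3) and 13 (Parp8).

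RefSeq promoter windows of GRCm38.p6, from 250 bases before to 50 bases after a transcript start, were found for 7 members, in 8 windows since Parp11 has a pair of starts. Parp9, Parp10 and Parp14 had no entry. The windows were searched on both strands for TTTC followed by any 2 bases and TTTC again, the core of the interferon-stimulated response element (ISRE), and TTCNNNGAA, the gamma-activated site (GAS). An ISRE core was present in 1 of the 8 windows and a GAS in 1 of the 8, and both were at the upstream start of Parp11. Over all 32851 RefSeq windows, 3.44% held the ISRE core and 8.3% held the GAS. In the Parp11 window the ISRE core is TTTCGATTTC, which begins 44 bases before the start, and the GAS is TTCTTGGAA, which begins 37 bases before it, with 3 bases in common. A match of letters is a description of the window and not evidence of binding. The Parp11 window is shown because it holds both motifs, in capitals, and the Dtx3l and Parp12 windows are shown beside it because these genes rose in most of the same comparisons and hold neither. The regions are chr6:127446590-127446889 on the plus strand, chr16:35938978-35939277 on the minus strand and chr6:39118300-39118599 on the minus strand.
Parp11: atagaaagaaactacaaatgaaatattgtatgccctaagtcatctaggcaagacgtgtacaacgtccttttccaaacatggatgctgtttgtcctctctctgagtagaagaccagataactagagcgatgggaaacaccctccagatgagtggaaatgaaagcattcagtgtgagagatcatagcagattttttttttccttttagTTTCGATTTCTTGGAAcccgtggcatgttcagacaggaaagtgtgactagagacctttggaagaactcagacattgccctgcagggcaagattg
Dtx3l: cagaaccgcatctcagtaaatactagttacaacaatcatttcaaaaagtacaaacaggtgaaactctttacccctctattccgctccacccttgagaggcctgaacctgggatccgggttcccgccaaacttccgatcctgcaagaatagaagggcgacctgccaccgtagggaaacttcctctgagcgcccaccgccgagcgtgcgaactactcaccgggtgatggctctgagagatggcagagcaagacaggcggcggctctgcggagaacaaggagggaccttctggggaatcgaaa
Parp12: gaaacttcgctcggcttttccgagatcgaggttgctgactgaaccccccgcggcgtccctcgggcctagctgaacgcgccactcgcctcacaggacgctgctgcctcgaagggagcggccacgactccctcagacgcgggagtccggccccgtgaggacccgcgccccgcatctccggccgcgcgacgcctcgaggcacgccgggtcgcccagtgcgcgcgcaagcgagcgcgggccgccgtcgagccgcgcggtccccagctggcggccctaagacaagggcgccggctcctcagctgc

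Values are read counts scaled to 1000000 counted reads (CPM) after TMM scaling of the library sizes. Libraries of day 8 were the shallowest, with 3614967 to 9879339 counts on genes, and those of the sets the deepest, with 21504555 to 45581528. The time course libraries held 14419697 to 20220329 counts, the antibody libraries 5295144 to 34380735 and the peritoneal libraries 7625225 to 23381318. The deleted gene H3f3a was lower in cKO in all 12 cKO against WT comparisons, for example 9.29 against 47.1 CPM on day 5 and 4.36 against 42.1 in peritoneal macrophages. Among these comparisons H3f3b, the other H3.3 gene, was called lower only in the 3 arms of the antibody experiment (48.9 against 376 CPM without antibody), while on day 3 it was at 202 against 234 CPM and did not pass the test (adjusted p = 0.47). Summed macrophage markers were at 2812 to 7950 CPM in BMDMs, and resident peritoneal markers at 7594 to 9221 CPM in peritoneal macrophages and at most 26.6 CPM elsewhere. Sets 1 and 3 stood close together: after removal of the group means, each set 1 library correlated best with the set 3 library of its genotype and number (r 0.0875 to 0.639 over 11170 genes, in 6 of 6 cases), so these sets may not be independent and are given side by side. Libraries of WT day 7 stood as close to them, replicate 2 to replicate 1 of WT set 3 (r 0.678) and replicate 3 to replicate 2 of WT set 1 (r 0.563), so day 7 and the sets may not be independent either. One library of day 8, cKO with IFNg replicate 1, had 57.06% of its reads unmapped and the lowest total count, and values of the members that it changes are also given without it.

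The time course compared cKO with WT cells during differentiation. H3f3b RNA was not called lower in cKO on days 3, 5 and 7 (0.863-, 0.787- and 0.755-fold), so H3.3 transcripts were reduced and not absent. On day 3 all 6 interferon-linked members were higher in cKO than in WT cells, by 3.93- to 5.19-fold. Parp14, a mono-ADP-ribosyltransferase with macrodomains, was at 76.0, 71.4 and 57.0 CPM in the WT libraries and at 318, 312 and 430 CPM in the cKO libraries. The ligase partner Dtx3l was at 30.7, 35.0 and 29.8 CPM in WT and 147, 149 and 184 CPM in cKO. For both genes every cKO library lay above every WT library, and the same was found for the other 4 interferon-linked members. Of all genes, 34.1% did not overlap on day 3.

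The fold change of Parp14 on day 3 was 5.19 (log2 2.38 ± 0.339, SE; adjusted p = 0.000456, edgeR quasi-likelihood test), and that of Dtx3l was 5.03 (log2 2.33 ± 0.375; adjusted p = 0.00106). Parp9, which binds Dtx3l, was at 21.7, 20.1 and 17.97 CPM in WT and 85.8, 88.5 and 115 CPM in cKO (4.84-fold, adjusted p = 0.000456). Parp12, an antiviral mono-ADP-ribosyltransferase with zinc fingers, went from 37.2, 33.4 and 31.7 CPM to 155, 132 and 158 CPM (4.34-fold, adjusted p = 0.00229). The mono-ADP-ribosyltransferases Parp10 and Parp11 rose 4.01-fold (adjusted p = 0.00251) and 3.93-fold (adjusted p = 0.00515). Of all 15955 genes tested, 8.65% were called on day 3 in either direction at an adjusted p under 0.05, against 7 of the 10 members. The median log2 fold change was 2.20 over the 6 interferon-linked members and 0.04 over all genes. Since the members were chosen with earlier results of these data known, these figures describe the list and are no test of it. Fewer cells of a type and less RNA per cell cannot be told apart in such bulk libraries.

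**Figure D1:**
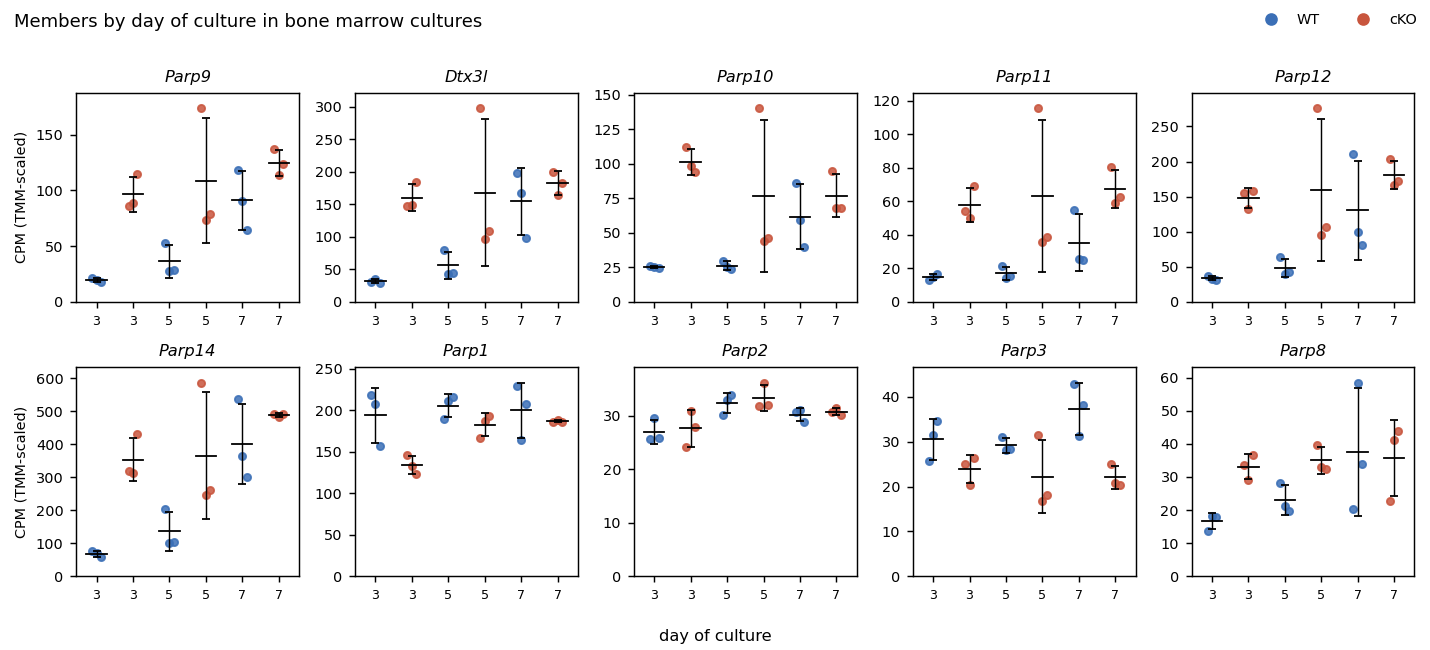
Expression (CPM, TMM-scaled, linear axes from 0) of the 10 members by day of culture (3, 5 or 7), with WT in blue and cKO in red. Each point is a library, the black line the mean and the bar the SD of 3 libraries. In the first 6 panels the cKO libraries of day 3 all sit above the WT libraries, while by day 7 the WT libraries of 5 of these genes reach into the cKO range.

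Among the DNA repair members, only Parp1 passed the test on day 3, and it was lower in cKO. Parp1, the most abundant enzyme that makes ADP-ribose chains at DNA breaks, was at 219, 208 and 157 CPM in WT and at 146, 133 and 124 CPM in cKO. The highest cKO library was below the lowest WT library, by a small margin. The fold was 0.691 (log2 -0.53 ± 0.137; adjusted p = 0.0222), and without one of WT replicates 1 or 2 or cKO replicates 2 or 3 the adjusted p of Parp1 was 0.0769 to 0.0939. Parp2, which works beside Parp1, showed 25.6, 29.6 and 25.8 CPM in WT and 24.1, 30.9 and 27.97 CPM in cKO (1.02-fold, adjusted p = 0.892). Parp3, which acts in the repair of double-strand breaks, was at 25.6, 31.4 and 34.7 CPM in WT and 25.0, 20.3 and 26.5 CPM in cKO (0.783-fold, adjusted p = 0.333). Parp8, a mono-ADP-ribosyltransferase of little known function, was at 13.8, 18.1 and 18.03 CPM in WT and 33.6, 29.2 and 36.6 CPM in cKO, with no overlap. Its 1.99-fold difference missed the threshold (adjusted p = 0.0556) and passed it with the replicate numbers as a block, which pair the libraries of this comparison (Parp8 adjusted p = 0.0491).

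Other cell types moved with the genotype on day 3. The sum of 8 neutrophil markers was 1583 to 3038 CPM in WT and 2732 to 4205 CPM in cKO, and 4 of 5 B cell markers were called higher in cKO (their sum 31.6 to 41.2 CPM against 61.7 to 100.2 CPM). The sum of 18 proliferation genes was 2591 to 3501 CPM in WT and 2195 to 2340 CPM in cKO, with a median log2 fold change of -0.39 and none of the 18 called (edgeR; 5 under an unadjusted p of 0.05). The part of these cells in the differences of the members was not tested.

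On day 5 the same 6 members were called higher in cKO, by 2.67- to 3.70-fold (adjusted p 0.0126 to 0.0275), while 3.12% of all genes were called. The cKO libraries were far apart, however. Parp12 was at 276 CPM in cKO replicate 1 and at 95.8 and 107 CPM in replicates 2 and 3, against 63.6, 39.8 and 42.9 CPM in WT. Parp11 was at 115 CPM in cKO replicate 1 and at 35.7 and 38.4 CPM in the others, against 21.3, 14.2 and 15.7 CPM in WT. For each of the 6 genes the lowest cKO library remained above the highest WT library, and with Parp8 7 members did not overlap (26.5% of all genes). Replicate 1 of cKO also held the highest neutrophil marker sum of the day (1741 CPM, against a lowest value of 504 CPM in this group and 486 to 585 CPM in WT).

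The calls of day 5 rested on single libraries. Without cKO day 5 replicate 1, WT replicate 2 or WT replicate 3, none of the 6 was called, and the same was found when the fit held only the groups of day 5. Without cKO replicate 1 the log2 fold changes were 1.077 for Parp9, 0.89 for Dtx3l, 0.79 for Parp10, 1.13 for Parp11, 1.07 for Parp12 and 0.90 for Parp14 (adjusted p 0.0725 to 0.189 over these genes, with Parp9 lowest and Parp14 highest). The repair members showed 0.889-fold (Parp1), 1.03-fold (Parp2) and 0.759-fold (Parp3) values on day 5, none called.

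By day 7 no member was called between the genotypes by edgeR, with 2 members under an unadjusted p of 0.05 and 1 called by DESeq2 (1.82% of all genes called by edgeR). The fold changes of the 6 interferon-linked members were 1.18 to 1.91, all above 1, with a median log2 value of 0.38 against 0.01 over all genes. Parp14 was at 535, 363 and 301 CPM in WT and at 492, 481 and 490 CPM in cKO. Parp11 was at 54.9, 25.8 and 25.0 CPM in WT and at 80.6, 59.2 and 62.3 CPM in cKO, the one interferon-linked member whose groups did not overlap. Parp3 was the other member without overlap, at 42.8, 31.2 and 38.1 CPM in WT and 25.1, 20.7 and 20.4 CPM in cKO (of all genes, 16.6% did not overlap). The fall of Parp3 by 0.76 on the log2 scale missed the threshold (SE 0.204, adjusted p = 0.0692) and passed it with the replicate block, whose numbers pair these libraries (adjusted p = 0.0425), and by DESeq2 (Parp3 adjusted p = 0.0203, range 0.0203 to 0.239 over all alternatives).

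For the 6 interferon-linked members the ratios of cKO to WT were smaller on day 7 than on day 3. That change was not called by edgeR, and its tests are given further below. In WT the 6 members were 2.07 to 2.92 times higher on day 7 than on day 5 with no overlap (14.7% of all genes did not overlap). None was called by edgeR (adjusted p 0.0724 to 0.192), with 7 members under an unadjusted p of 0.05 and 0.150% of all genes called. Parp14 was at 205, 102 and 103 CPM on day 5, below all of its day 7 values (adjusted p = 0.0724). DESeq2 called 5 members, leaving out replicate 3 of WT day 7 gave 5 and leaving out replicate 1 of WT day 5 gave 4. Between days 3 and 5 of WT the 6 members were at 1.04- to 2.01-fold, none called (4 under an unadjusted p of 0.05, 1 by DESeq2; 2.91% of all genes called by edgeR).

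In cKO cells the 6 members were at 0.756- to 1.13-fold on day 5 against day 3 (0 called by edgeR, 2 members under an unadjusted p of 0.05, 1 by DESeq2; 4.89% of all genes called) and at 1.003- to 1.34-fold on day 7 against day 5 (0 called, 0 under an unadjusted p of 0.05, 0 by DESeq2; 0.0501% called). These ratios rested on cKO day 5 replicate 1. Without it the log2 values of day 5 against day 3 were -0.32 for Parp9, -0.62 for Dtx3l, -0.63 for Parp11 and -1.15 for Parp10, and Parp10 was called lower (adjusted p = 0.00914), as Parp1 was called higher (log2 0.52, adjusted p = 0.0492). Without it the values of day 7 against day 5 were 0.70 (Parp9) to 0.93 (Parp14), none called. The change of the genotype effect from day 3 to day 7 was tested as an interaction. It was negative for all 6 members, by -2.09 ± 0.461 on the log2 scale for Parp14 (adjusted p = 0.0762), -2.09 ± 0.508 for Dtx3l (adjusted p = 0.0897) and -1.82 ± 0.441 for Parp9 (adjusted p = 0.0885). None was called by edgeR, with 7 members under an unadjusted p of 0.05 and 0.0439% of all genes called, while DESeq2 called 4 members and the fit without WT day 7 replicate 3 called 3. With the replicate block, whose numbers pair the libraries within day 3 and within day 7, Parp14 (adjusted p = 0.0174), Parp9 (0.0264) and Dtx3l (0.0364) were called. Over the alternatives the adjusted p of this interaction ranged from 0.00176 to 0.177 for Parp14 and from 0.00562 to 0.2 for Dtx3l.

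Day 8 BMDMs showed what IFNg does to the family. In WT cells 12 h of IFNg raised all 6 interferon-linked members, by 5.68- to 8.85-fold, and also raised the repair member Parp3 and Parp8, while Parp1 fell. Parp11 was at 24.8, 23.5 and 21.8 CPM without and 223, 231 and 166 CPM with IFNg, and Parp14 at 259, 266 and 213 CPM without and 1440, 1948 and 1450 CPM with it. Parp1 was at 185, 185 and 181 CPM without and 56.9, 32.6 and 51.2 CPM with it. The groups did not overlap in any of the 9 members that were called, and 62.0% of all genes did not overlap either.

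Parp11 rose 8.85-fold (log2 3.15 ± 0.226, adjusted p = 5.56e-06) and Parp14 6.55-fold (adjusted p = 7.07e-05). Dtx3l, Parp10, Parp12 and Parp9 rose 6.23-, 6.20-, 6.08- and 5.68-fold (adjusted p 9.35e-07 to 0.000258 over the 6 members). Parp8 rose 6.36-fold, from 23.2, 25.7 and 23.02 CPM to 133, 185 and 139 CPM (adjusted p = 0.000313), an increase of the size of the interferon-linked members. Parp3 rose 5.08-fold, from 24.9, 32.1 and 27.9 CPM to 105, 159 and 168 CPM (adjusted p = 0.000109). Parp1 fell to 0.256 of its untreated level (log2 -1.97 ± 0.201, adjusted p = 5.3e-05). Parp2 was at 21.6, 23.4 and 22.6 CPM without and 22.6, 23.5 and 19.3 CPM with IFNg (0.968-fold, log2 -0.05 ± 0.169, adjusted p = 0.853). Thus the 3 repair members split, with 1 higher, 1 lower and 1 not called. IFNg called 38.9% of all 13075 genes tested in WT, against 9 of 10 members, and the median log2 fold change was 2.64 over the interferon-linked members and -0.01 over all genes. Proliferation genes moved too, with 9 of 18 lower and sums of 2036 to 3269 CPM without and 1088 to 1869 CPM with IFNg, and their part in the fall of Parp1 was not tested.

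**Figure D2:**
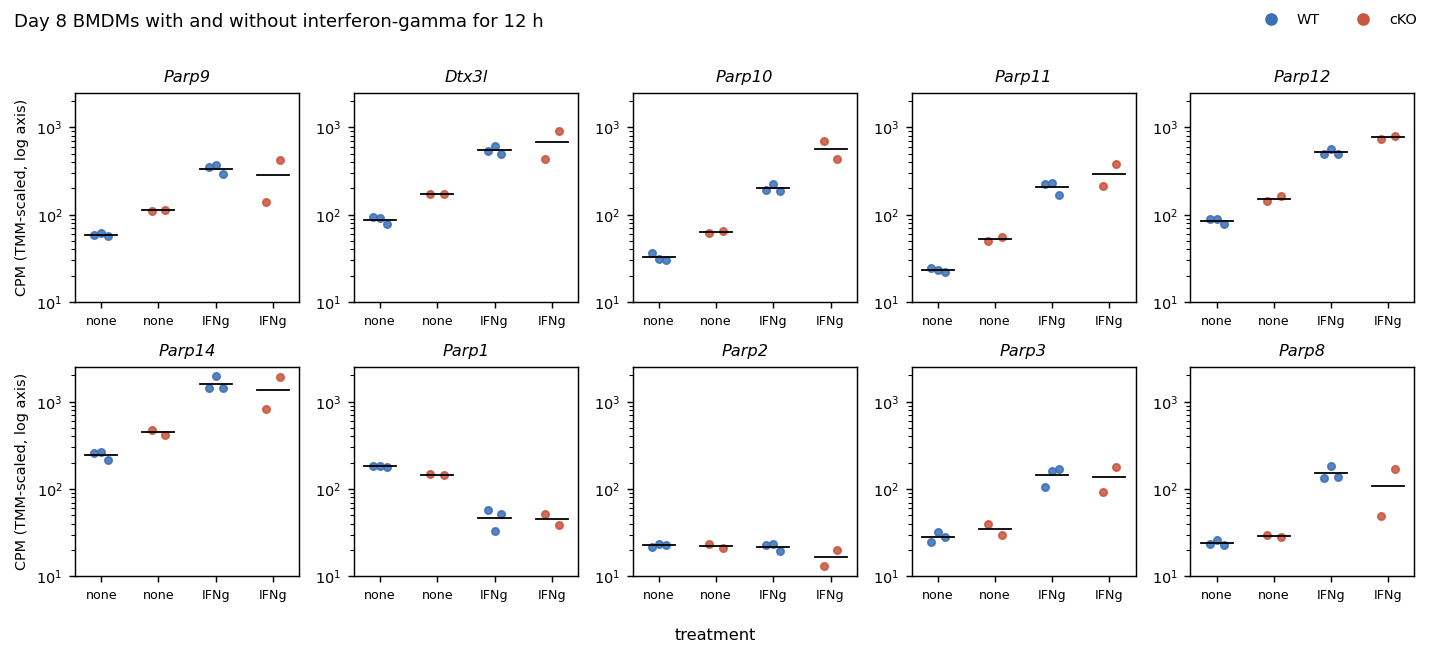
Expression (CPM, TMM-scaled, logarithmic axes) of the 10 members in day 8 BMDMs without treatment (none) or with IFNg for 12 h, in WT (blue, 3 libraries a group) and cKO (red, 2 libraries a group). Points are libraries and lines are means. In WT the IFNg libraries sit above the untreated ones for 8 members, below them for Parp1 and among them for Parp2.

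The same 9 members were called in cKO cells under IFNg, in the same directions (33.9% of all genes called). The 6 interferon-linked members rose 2.54- to 8.96-fold, Parp3 3.95-fold and Parp8 3.79-fold, and Parp1 fell to 0.307 of its level (adjusted p = 0.000674). The 2 cKO libraries with IFNg were far apart. Parp9 was at 138 and 429 CPM, against 111 and 113 CPM in untreated cKO, and Parp8 at 48.9 and 168 CPM, against 29.5 and 28.2 CPM. Replicate 1, with most of its reads unmapped, was the lower library for both genes, and its fibroblast marker sum was 340 CPM against 53.1 CPM in replicate 2. Without replicate 1 the log2 fold changes in cKO were 1.964 for Parp9 (1.34 with it), 2.45 for Dtx3l, 2.57 for Parp8 and 2.11 for Parp14, and the single library left was assumed to vary like the other groups. The difference of the IFNg effect between cKO and WT was not called for any member or any gene by edgeR (0.00% of genes), with 2 members under an unadjusted p of 0.05 and 0 by DESeq2. Without cKO IFNg replicate 2 it was called for 6 members, a fit that rests on the poorly mapped library.

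Untreated cKO BMDMs of day 8 again showed the 6 interferon-linked members above WT, by 1.78- to 2.25-fold, with no overlap in any of them. Parp12 was at 88.7, 90.2 and 78.1 CPM in WT and 143 and 163 CPM in cKO, the only member called (log2 0.84 ± 0.139, adjusted p = 0.0279; 0.658% of all genes called). Parp11 (2.25-fold, adjusted p = 0.0622) and Parp10 (1.94-fold, adjusted p = 0.0745) missed the threshold. In all 8 members had groups without overlap, against 31.9% of all genes in these groups of 3 and 2. The count of called members was 0 when any one library of these groups was left out, 4 by DESeq2, and 6 in the fit of these groups alone or without the filter on low counts.

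Under IFNg, 2 members were called between cKO and WT (5.48% of all genes). Parp10 was at 193, 226 and 189 CPM in WT and 697 and 439 CPM in cKO (2.80-fold, log2 1.49 ± 0.194, adjusted p = 0.0048), and Parp12 at 500, 564 and 499 CPM in WT and 746 and 792 CPM in cKO (1.48-fold, adjusted p = 0.047). Parp9 and Parp14 were at 0.845-fold each. Parp10 was the one member called when any one library was left out. Without the poorly mapped cKO replicate 1, the log2 differences were 0.77 for Dtx3l, 1.14 for Parp10, 0.90 for Parp11 and 0.63 for Parp12. They were 0.375 for Parp9 and 0.265 for Parp14. That fit leaves a single cKO library with IFNg, as does the fit without cKO replicate 2. Without cKO replicate 2 the log2 values were -1.31 for Parp9, -0.998 for Parp14, -1.67 for Parp8 and -0.74 for Parp2, while Parp10 and Parp12 were higher in cKO. Without any one of the WT libraries 1 member was called.

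In peritoneal macrophages no member was called by edgeR between cKO and WT (3 under an unadjusted p of 0.05, 0 by DESeq2; 1.06% of all 12361 genes called). The 6 interferon-linked members were at 1.17- to 1.91-fold, all above 1, with a median log2 value of 0.45. Parp14 was at 20.2, 58.1 and 69.0 CPM in WT and 85.6, 76.4 and 121 CPM in cKO (1.91-fold, log2 0.93 ± 0.394, adjusted p = 0.492), and Parp12 at 65.4, 76.1 and 76.8 CPM in WT and 101, 92.3 and 123 CPM in cKO (1.44-fold, adjusted p = 0.283). Parp3 was at 31.7, 31.9 and 25.2 CPM in WT and 15.6, 22.4 and 23.7 CPM in cKO (0.691-fold, adjusted p = 0.451). The groups did not overlap for these genes and Parp11, and the same held for 1850 of the 12361 genes tested. Without the filter on low counts 1 member was called, Parp14. Parp1 was at 44.96, 54.4 and 58.8 CPM in WT and 55.3, 71.1 and 59.4 CPM in cKO, and Parp2 at 73.8, 58.2 and 66.0 CPM in WT and 75.6, 69.2 and 56.0 CPM in cKO.

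The order of levels within a sample was compared per kilobase of exon. In WT BMDMs of day 7, Parp14 (43.0 ± 13.04 CPM per kb, SD, n = 3) and Parp1 (37.8 ± 6.27) stood first, and their levels overlapped within the spread, followed by Parp12 (32.7 ± 17.6) and Dtx3l (27.04 ± 8.99). On WT day 3 Parp1 was far ahead (36.7 ± 6.27 CPM per kb), and Parp12 came next at 8.54 ± 0.706. With IFNg, Parp14 reached 173 ± 31.2 CPM per kb in WT and Parp1 fell to 8.86 ± 2.40, the last but one of the 10. In WT peritoneal macrophages Parp12 (18.2 ± 1.60 CPM per kb) and Parp2 (18.2 ± 2.16) were level in front and Parp1 was at 9.96 ± 1.34. Parp8 was last in the WT groups of days 3, 7, untreated day 8 and peritoneal macrophages. Peritoneal libraries were prepared with another kit than BMDMs per the methods, so tissue and preparation cannot be told apart.

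The antibody arms asked whether signalling through IFNAR1 was needed for the difference. Without antibody, 7 members were called higher in cKO, the 6 interferon-linked members at 1.84- to 3.34-fold and Parp8 at 1.45-fold (8.16% of all 17191 genes called). Parp14 was at 96.99, 45.9 and 50.4 CPM in WT and 266, 233 and 147 CPM in cKO (3.34-fold, log2 1.74 ± 0.293, adjusted p = 0.00242). Parp9 was at 30.6, 18.4 and 19.8 CPM in WT and 78.3, 62.0 and 41.3 CPM in cKO (2.64-fold, adjusted p = 0.00275). The cKO libraries lay above the WT libraries for all 7, and 39.4% of all genes did not overlap in this arm. Parp9 and Parp14 were called when any one library was left out, whereas the count of called members fell to 4 without WT replicate 2 or cKO replicate 2, to 3 without cKO replicate 1 and to 2 without WT replicate 3.

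With the control antibody, 4 members were called higher in cKO: Parp14 (2.28-fold, adjusted p = 0.0258), Parp9 (2.21-fold, adjusted p = 0.0117), Parp11 (1.79-fold, adjusted p = 0.0167) and Parp8 (1.60-fold, adjusted p = 0.016), while 5.11% of all genes were called. Parp14 was at 63.1, 62.0 and 64.1 CPM in WT and 168, 157 and 106 CPM in cKO, with no overlap (36.7% of all genes did not overlap). Parp10 was at 45.4, 42.6 and 48.8 CPM in WT and 52.2, 59.1 and 47.1 CPM in cKO, where the groups overlapped (1.16-fold, adjusted p = 0.781). These calls also depended on single libraries, with 0 members called without WT replicate 1 or 2, 1 without WT replicate 3 or cKO replicate 1 and 2 without cKO replicate 3.

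With the IFNAR1 antibody no member was called by edgeR (1 under an unadjusted p of 0.05, 0 by DESeq2; 0.698% of all genes called). The 6 interferon-linked members were at 1.04- to 1.91-fold, with a median log2 value of 0.43, against 0.89 with the control antibody and 1.18 without antibody, and 0.00 over all genes in each arm. Parp14 was at 41.4, 27.6 and 53.3 CPM in WT and 84.6, 72.6 and 77.2 CPM in cKO, still without overlap (1.91-fold, log2 0.94 ± 0.29, adjusted p = 0.196). It was 1 of 2 members whose groups did not overlap, the other being Parp2, against 8.67% of all genes, and it was the 1 member called without WT IFNAR1 antibody replicate 3. Dtx3l was at 57.4, 63.4 and 31.0 CPM in WT and 77.0, 40.3 and 40.7 CPM in cKO (1.04-fold). A lost call is not a tested difference between arms, and the tests of that difference follow.

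**Figure D3:**
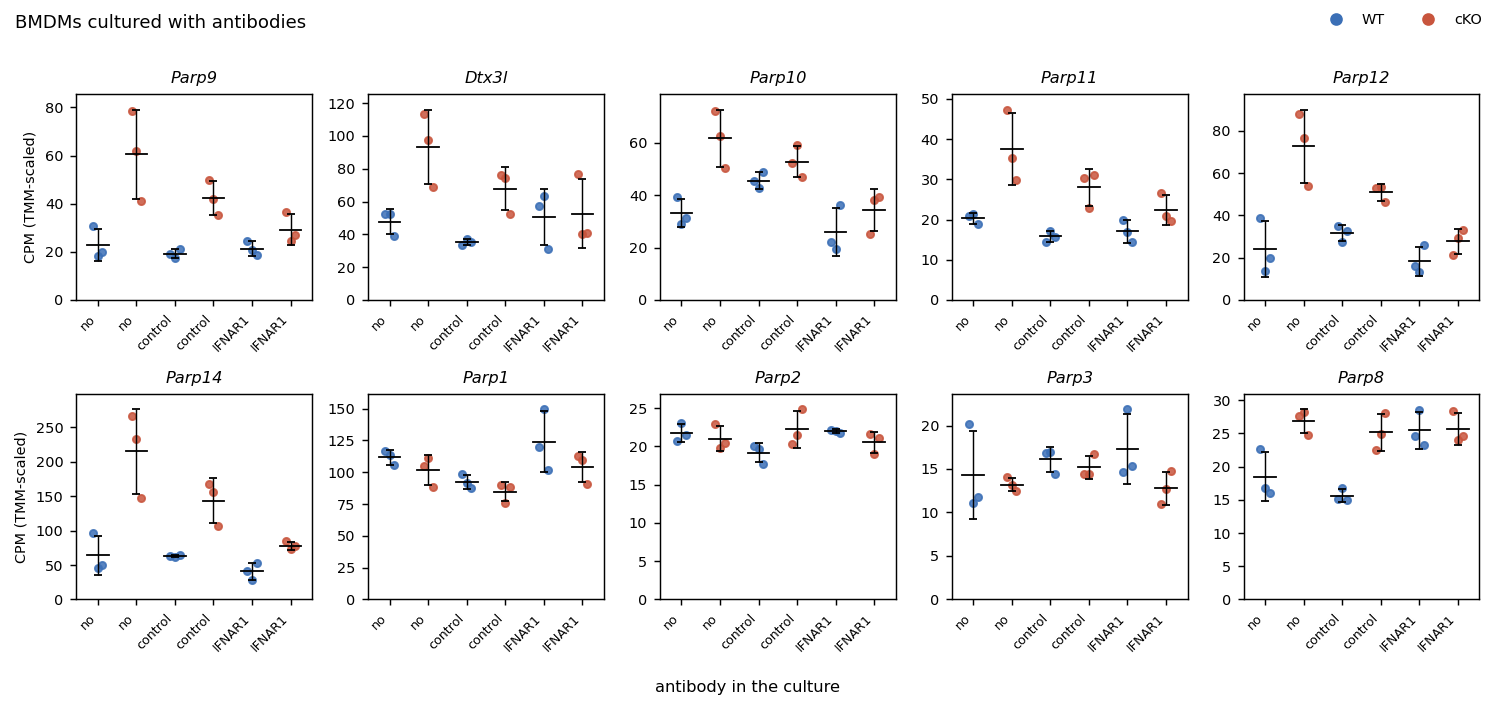
Expression (CPM, TMM-scaled, linear axes from 0) of the 10 members in BMDMs cultured with no antibody, the control antibody or the IFNAR1 antibody, in WT (blue) and cKO (red). Points are libraries, lines are means and bars the SD of 3 libraries. For Parp9, Parp12 and Parp14 the cKO mean is lower with the control antibody than without antibody and lower still with the IFNAR1 antibody.

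Against the control antibody, the IFNAR1 antibody left the 6 interferon-linked members of cKO cells at 0.543- to 0.795-fold, with 0 called by edgeR or DESeq2 and 4 members under an unadjusted p of 0.05 (4.68% of all genes called). The lowest ratios were those of Parp12 (0.543, adjusted p = 0.141) and Parp14 (0.545, log2 -0.88 ± 0.289, adjusted p = 0.099), and in both the arms did not overlap. Of all genes, 28.5% did not overlap between these arms. In WT cells the antibody went with lower Parp10, from 45.4, 42.6 and 48.8 CPM to 22.0, 19.4 and 36.4 CPM (0.570-fold, adjusted p = 0.0331, range 0.00153 to 0.134 over the alternatives), and with higher Parp8, from 15.1, 16.8 and 15.01 CPM to 24.6, 28.5 and 23.2 CPM (1.62-fold, adjusted p = 0.0102, range 0.000342 to 0.0916). These were the 2 members called in WT (11.2% of all genes), 6 were called without WT IFNAR1 antibody replicate 3, 0 without WT control antibody replicate 3 and 1 without any other library of these arms. The difference of the antibody effect between cKO and WT was called for no member and no gene (0.00%), with 2 members under an unadjusted p of 0.05 and 0 by DESeq2.

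The control antibody itself was compared with no antibody. In cKO the 6 interferon-linked members were at 0.667- to 0.853-fold (0 called by edgeR and DESeq2, 2 members under an unadjusted p of 0.05; 2.09% of all genes called), and in WT they were at 0.735- to 1.37-fold (0 called by edgeR and DESeq2, 0 under an unadjusted p of 0.05; 9.74% called), with 1 called without WT no antibody replicate 1. The sum of 18 proliferation genes differed between arms: in WT it was 1456 to 1692 CPM without antibody, 452 to 861 CPM with the control antibody and 1454 to 3213 CPM with the IFNAR1 antibody, and in cKO 996 to 1525, 429 to 701 and 862 to 1878 CPM. The part of proliferation in the differences between arms was not tested.

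In the 3 sets of BMDMs, the most deeply sequenced libraries, Parp11 was the member with the highest ratio of cKO to WT. It was at 25.5, 20.1 and 24.6 CPM in WT and 52.0, 51.7 and 55.4 CPM in cKO of set 1. In set 2 it was at 24.9, 28.4 and 29.1 CPM in WT and 58.6, 66.5 and 56.5 CPM in cKO, and in set 3 at 23.7, 21.7 and 22.8 CPM in WT and 49.2, 49.3 and 53.6 CPM in cKO. In each set all cKO libraries lay above all WT libraries for Parp11. Of all genes, 41.4%, 44.5% and 43.2% did not overlap in sets 1, 2 and 3. The folds of Parp11 were 2.27, 2.21 and 2.23 (adjusted p 1.26e-09, 1.32e-09 and 1.31e-09).

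Of the interferon-linked members, 5 were called higher in set 1, 6 in set 2 and 4 in set 3. With Parp2 and Parp3 in sets 1 and 3 and Parp8 in set 2, there were 7, 7 and 6 members called in either direction, beside 34.6%, 21.9% and 35.9% of all 18083 genes. Parp9 rose 1.48-, 2.05- and 1.44-fold (adjusted p 8.75e-05, 4.09e-08 and 0.000186), and Parp12 1.498-, 1.43- and 1.46-fold. Parp14 was at 1.34-, 1.40- and 1.20-fold, called in set 2 only (adjusted p = 0.0515, 0.038 and 0.241). When a fold of 2 or more was also required, 1, 3 and 1 members were called, and the share of all genes under that rule is not given.

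The repair member Parp3 fell in sets 1 and 3. It was at 29.5, 32.4 and 26.0 CPM in WT and 17.99, 14.6 and 17.3 CPM in cKO of set 1 (0.567-fold, log2 -0.82 ± 0.158, adjusted p = 0.000251), and at 24.9, 31.2 and 24.2 CPM in WT and 15.3, 14.4 and 15.2 CPM in cKO of set 3 (0.559-fold, adjusted p = 0.000181). In set 2 the cKO libraries were spread over 20.6, 23.8 and 30.1 CPM against 31.0, 28.1 and 28.9 CPM in WT, and overlapped with them (0.844-fold, adjusted p = 0.286). Parp2 was 1.17- and 1.18-fold higher in cKO of sets 1 and 3 (adjusted p = 0.0364 and 0.029), called in 2 of the 6 fits that left out a library of each set. Parp8 rose in set 2 only, from 26.3, 26.5 and 25.4 CPM to 55.0, 49.8 and 52.3 CPM (2.01-fold, adjusted p = 3.13e-05). Its WT level in sets 1 and 3 was higher and more spread, 32.7 to 60.1 CPM.

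**Figure D4:**
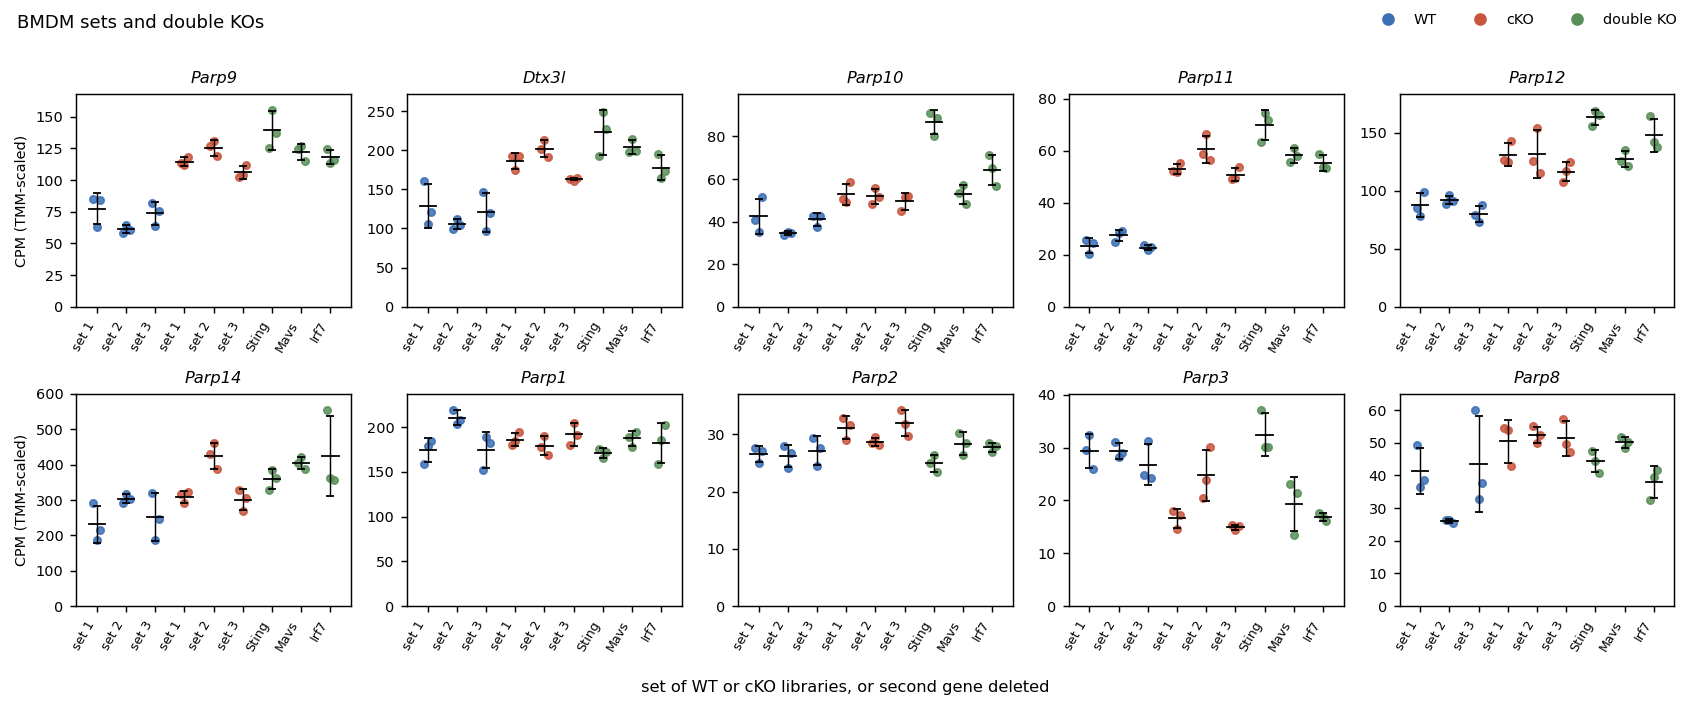
Expression (CPM, TMM-scaled, linear axes from 0) of the 10 members in the 3 sets of WT (blue) and cKO (red) BMDMs and in double knockouts of H3.3 with Sting, Mavs or Irf7 (green). Points are libraries, lines are means and bars the SD of 3 libraries. Parp11 is higher in all cKO and double knockout libraries than in any WT library, and Parp3 in the Sting double knockout overlaps the WT libraries.

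The double knockouts asked whether the DNA sensor adaptor Sting, the RNA sensor adaptor Mavs or the transcription factor Irf7 was needed for the higher levels. Each was compared with the 9 WT and the 9 cKO libraries of the sets, since the labels do not tie a set to a knockout. The 3 double knockouts therefore share these controls, and if sets 1 and 3 are not independent the p-values are too small. With 1 set as the only WT reference, 6 to 8 members were called against WT in each double knockout, and the share of all genes called in these fits is not given. Against WT, all 6 interferon-linked members were called higher in each of the 3, by 1.38- to 2.86-fold with Sting deleted, 1.35- to 2.38-fold with Mavs deleted and 1.51- to 2.26-fold with Irf7 deleted. These comparisons called 40.2%, 43.2% and 31.9% of all genes, and 6, 8 and 7 of the 10 members. Parp11 was at 63.4, 74.4 and 72.0 CPM with Sting deleted, 55.5, 61.2 and 58.1 CPM with Mavs deleted and 58.9, 53.8 and 53.2 CPM with Irf7 deleted, all above the highest WT library of the sets (29.1 CPM).

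Against cKO, the Sting double knockout was called for 7 members (36.4% of all genes). Parp10 was at 91.1, 80.4 and 88.8 CPM and thus above all 9 cKO libraries (45.1 to 58.5 CPM), a 1.69-fold difference (log2 0.76 ± 0.0862, adjusted p = 9.41e-07). Parp3 was at 37.2, 30.03 and 30.2 CPM, 1.77-fold above cKO (adjusted p = 1.86e-05), and its level did not differ from WT at the threshold (1.14-fold, adjusted p = 0.235). Parp2 was lower, at 25.0, 26.5 and 23.5 CPM (0.817-fold, adjusted p = 0.00184). Parp9, Dtx3l, Parp11 and Parp12 were 1.21- to 1.29-fold higher. With the cKO of set 1, 2 or 3 as the only reference 6, 2 and 7 members were called, and Parp3 missed the threshold against set 2 (log2 0.39, adjusted p = 0.0503). The share of all genes called with these single references is not given.

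The Mavs double knockout differed from cKO in no member (0 called by edgeR and DESeq2, 0 under an unadjusted p of 0.05; 9.32% of all genes called), with ratios of 0.928 to 1.19. With Irf7 deleted, Parp10 was 1.25-fold higher than in cKO (71.1, 65.0 and 56.7 CPM, adjusted p = 0.0194) and Parp8 lower at 32.4, 39.6 and 41.7 CPM (0.739-fold, adjusted p = 0.0303), the 2 members called beside 10.6% of all genes. Neither was called without replicate 1 or without replicate 2 of this double knockout, or with the cKO of set 1 or of set 3 as the only reference. Counts on Irf7 itself had a mean of 106 CPM with Irf7 deleted, against means of 60.6 to 132 CPM in the WT sets and 310 to 388 CPM in the cKO sets. These counts cover all exons together, and the paper reports the deletion by PCR and RNA-seq tracks. Both H3.3 genes were also lower with Irf7 deleted than in cKO. H3f3a was at 4.81 against 9.15 CPM (edgeR, adjusted p = 5.46e-05) and H3f3b at 121 against 200 CPM (adjusted p = 0.00131). Neither H3.3 gene was called against cKO with Sting or Mavs deleted. The part of this further loss in the differences of the members was not tested. Parp3 was below WT with Mavs deleted (23.1, 13.5 and 21.5 CPM, 0.678-fold, adjusted p = 0.00112) and with Irf7 deleted (17.7, 16.9 and 16.2 CPM, 0.595-fold, adjusted p = 0.00012). In Parp1 no double knockout was called against WT or cKO, with ratios of 0.921 to 1.01.

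**Figure D5:**
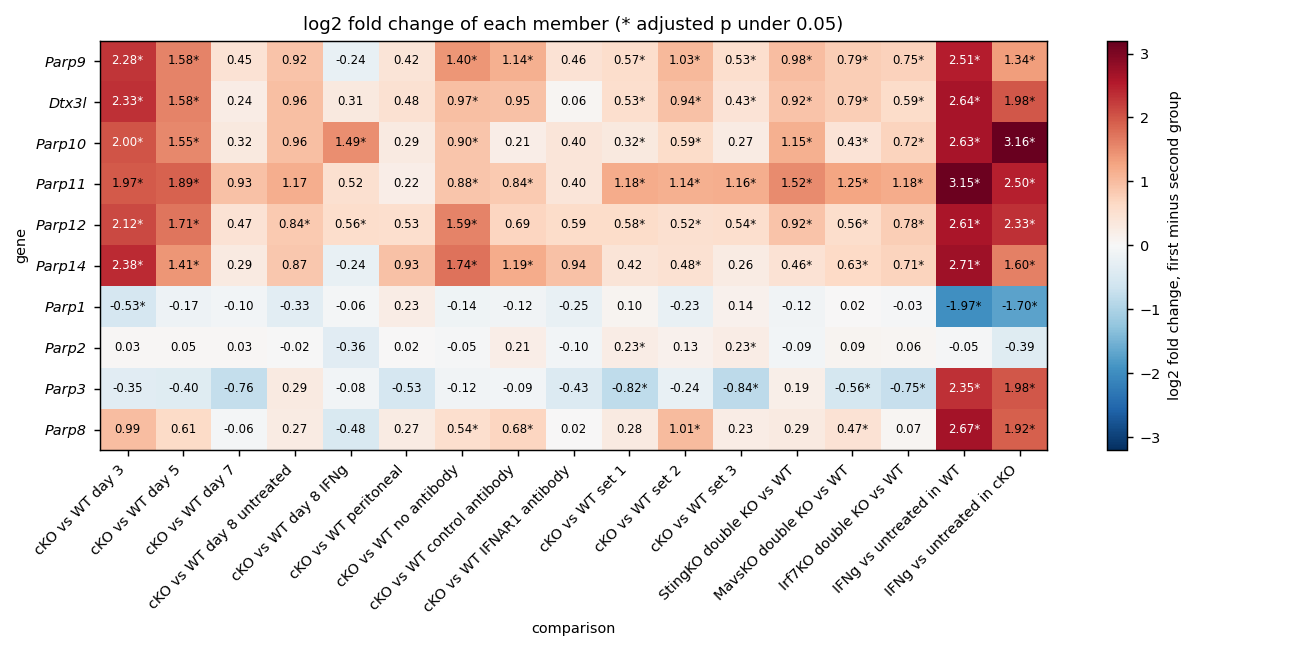
Log2 fold change (first group minus second) of each member in 17 comparisons, with an asterisk where the adjusted p was under 0.05. Red is higher and blue lower in the first group, and the 6 interferon-linked members fill the upper rows.

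Of the 12 comparisons of cKO with WT, sets 1 and 3 may not be independent, nor may day 7 and the sets. These comparisons called 0.658% to 35.9% of all genes. Parp12 was called higher in 8, Parp9 and Parp11 in 7, Dtx3l and Parp10 in 6 and Parp14 in 5. None of these genes was called lower. Parp1 was called lower in 1 and Parp3 in 2 of the 12. Parp2 was called higher in 2 and Parp8 in 3. From the lowest to the highest of the 27 group means, the interferon-linked members spanned 17.5-fold (Parp9) to 42.0-fold (Parp12), Parp3 11.2-fold, Parp8 9.75-fold, Parp1 4.65-fold and Parp2 4.02-fold. Without the poorly mapped cKO library with IFNg these spans were 17.3-fold (Parp10) to 46.7-fold (Parp14), 13.9-, 10.7-, 5.38- and 3.49-fold. All 6 interferon-linked members, Parp3 and Parp8 were highest in a group with IFNg, while Parp1 and Parp2 were lowest in cKO with IFNg, Parp2 only with that library included.

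The group means were also compared as patterns, each centred on its experiment. Over the 27 groups, whose spread is led by the groups with IFNg, the 15 pairs of interferon-linked members correlated at r 0.814 to 0.972 (median 0.935), and Parp9 with Dtx3l at 0.972. The 3 repair members correlated among themselves at -0.759 to 0.480. Parp8 correlated with the 6 interferon-linked members at 0.742 to 0.862. Without the poorly mapped library these ranges were 0.874 to 0.983, -0.791 to 0.319 and 0.765 to 0.886. Among 7303 candidate genes the patterns nearest to each member were those of Sp100, Herc6 and Dhx58 for Parp9 (r 0.981 to 0.983), Irgm1 for Dtx3l (0.98), Ogfr for Parp10 (0.985), Nlrc5 for Parp11 (0.984), Fbxw17 for Parp12 (0.986) and Eif2ak2 for Parp14 (0.976). Those nearest to the repair members were Gtf2i for Parp1 (0.963), Cep295 for Parp2 (0.838) and Pacs2 for Parp3 (0.886), and Phyh was nearest to Parp8 (0.921).

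Of 7 other PARP enzymes, 1 was called on day 3, the antiviral Zc3hav1, at 221 CPM in cKO and 161 CPM in WT (adjusted p = 0.0395). With IFNg in WT 3 of the 7 rose (Zc3hav1, Tiparp and Parp4) and 1 fell (Parp16, to 1.64 from 4.30 CPM). Of 11 single-strand break repair genes 0 were called between cKO and WT on day 3 (edgeR; 1 under an unadjusted p of 0.05), while with IFNg in WT 4 of 11 fell and 0 rose, beside 19.3% of all genes that fell and 19.5% that rose. The largest of these falls was that of the ligase Lig1, from 108 to 23.8 CPM (adjusted p = 5.79e-05). Of 9 genes that remove or read ADP-ribose, 1 was called on day 3, Adprhl1, at near-zero levels of 0.968 and 0.228 CPM. In peritoneal macrophages the ADP-ribose hydrolase gene Adprh was at 87.2 CPM in cKO and 21.7 CPM in WT (adjusted p = 0.00255), and the NAD-consuming Cd38 at 112 CPM in cKO and 428 CPM in WT (adjusted p = 0.0135).

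Among 12 interferon signalling factors 6 were called higher and 1 lower in cKO on day 3, with a median log2 value of 0.44. Irf7 was at 464 CPM in cKO and 4.79 CPM in WT (adjusted p = 0.000872), Stat2 at 253 and 35.5 CPM (adjusted p = 0.000761) and Irf9 at 84.7 and 25.2 CPM (adjusted p = 6.83e-05). On day 7 none of the 12 was called (edgeR; 3 under an unadjusted p of 0.05), as for the interferon-linked PARP members.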

How the data were processed

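RNA-seq libraries were made after ribosomal RNA depletion per the labels, and the methods name another kit for the peritoneal libraries. The authors trimmed reads with Cutadapt and aligned them with STAR to mm10 (GRCm38), versions not given in the sources used here, and deposited unnormalized read counts per gene. The unstranded counts were used, since both strands held equal counts (ratio 0.9949 to 1.03 over libraries). The RSEM and SARTools steps of the methods were not used here. Rows that name no gene (unmapped, multimapping, ambiguous or outside genes) were left out of library sizes.

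Each experiment was fitted in 1 model with edgeR 4.0.16 (R 4.3.3, limma 3.58.1), with TMM scaling, a filter at a minimum count of 10 and a total of 15, and quasi-likelihood tests. P-values were adjusted by Benjamini and Hochberg over all genes tested and called under 0.05. SE values were derived from the log2 fold change and the F statistic. The script was tested on simulated data. Alternatives were DESeq2 1.42.0, RLE scaling, no filter, either strand, a replicate block, only the groups compared, a fold of 2 or more, single reference sets and leaving out each library. The older dispersion method of edgeR, and spans and correlations without the poorly mapped library, were added after seeing the data. Replicate numbers were taken as pairing where every same-numbered pair of libraries deviated together (r over 0.1): cKO against WT on day 3 (0.126 to 0.419) and day 7 (0.153 to 0.467), peritoneal macrophages (0.144 to 0.194), cKO day 7 against day 5, IFNg in WT and control against no antibody in WT. This pairing comes from the data and not from the labels.

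All 10 members were named in every comparison. Genes of other lists were counted, and named where called between cKO and WT in the time course, on day 8 or in peritoneal macrophages, at most 4 per list, with those under IFNg named after their values were seen. The 3 genes nearest in pattern were taken by Pearson's r among genes whose mean log2 CPM reached 3 in each experiment. Members and lists were chosen with earlier results of these data known. The 2 libraries with conflicting labels entered no comparison.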

Additional observations from a re-analysis of the deposited data

Results flagged for a closer look

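Parp2 was flagged because its libraries moved one way under one antibody and the opposite way under the other. With the control antibody all cKO libraries (20.3, 21.5 and 24.9 CPM) lay above all WT libraries (20.1, 19.7 and 17.8 CPM), a log2 difference of 0.2065. With the IFNAR1 antibody all cKO libraries (21.6, 19.03 and 21.1 CPM) lay below all WT libraries (22.2, 22.1 and 21.8 CPM), a log2 difference of -0.09847. The differences were small and neither was called. The difference between the arms equals the difference of the antibody effect between cKO and WT, which was tested and called for no member. For Parp2 it was -0.371 to -0.21 on the log2 scale with 1 library left out, called in 0 of 12 fits.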

How the results depend on the processing

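Of 4990 values of single members over all alternatives, 4722 kept their side of the threshold, 152 lost a call, 116 gained one and 0 of the called values reversed. The sign changed in 155 values, of which 0 were called in either fit. The largest of these was 0.48 in size on the log2 scale in the main fit. The counts below are members called, after the count as reported. They show how the calls depend on the fit, and the shares of all genes called in these fits are not given. With only the groups compared, day 5 went from 6 to 0, cKO day 5 against day 3 from 0 to 1, the day 7 minus day 3 difference from 0 to 4, untreated day 8 from 1 to 6, day 8 IFNg from 2 to 0, IFNg in cKO from 9 to 4, IFNAR1 against control antibody in WT from 2 to 0 and Mavs against cKO from 0 to 1. With DESeq2, day 7 went from 0 to 1, WT day 5 against day 3 from 0 to 1, WT day 7 against day 5 from 0 to 5, cKO day 5 against day 3 from 0 to 1, day 7 minus day 3 from 0 to 4 and untreated day 8 from 1 to 4. Without the filter, WT day 7 against day 5, day 7 minus day 3 and peritoneal macrophages went from 0 to 1, untreated day 8 from 1 to 6, day 8 IFNg from 2 to 1 and IFNAR1 against control in WT from 2 to 1. With a fold of 2 or more, untreated day 8 went to 0, day 8 IFNg to 1, no antibody from 7 to 3, control antibody from 4 to 2, IFNAR1 against control in WT to 0, sets 1, 2 and 3 to 1, 3 and 1, Sting and Irf7 against cKO to 0, and Sting, Mavs and Irf7 against WT to 2, 1 and 1. Day 8 IFNg went to 1 with the second strand and with the older dispersion method, and Irf7 against cKO to 1 with the first strand, 0 with reference set 1 and 0 with reference set 3. Sting against cKO went to 2 with reference set 2. The cause was not tested.

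With the replicate block, day 7 went from 0 to 1, WT day 7 against day 5 from 0 to 5, day 7 minus day 3 from 0 to 3, untreated day 8 from 1 to 0 and day 8 IFNg from 2 to 1. It added 1 call on day 3, with the control antibody, for IFNAR1 against control in WT, in sets 1 and 2 and for Sting against WT. Where the numbers pair the libraries, the calls it changed were those of Parp8 on day 3, Parp3 on day 7, and Parp9, Dtx3l and Parp14 for day 7 minus day 3.

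Leaving out 1 library gave 6 to 7 called on day 3, 0 to 6 on day 5, 0 to 5 for WT day 7 against day 5, 0 to 2 for cKO day 5 against day 3, 0 to 3 for day 7 minus day 3, 0 for untreated day 8, 1 to 6 for day 8 IFNg, 6 to 9 for IFNg in cKO, 0 to 6 for the IFNg difference, 2 to 7 without antibody, 0 to 3 with the control antibody, 0 to 1 with the IFNAR1 antibody, 0 to 6 for IFNAR1 against control in WT, 0 to 1 for control against no antibody in WT, 5 to 8, 6 to 7 and 4 to 8 in sets 1, 2 and 3, 5 to 7 for Sting against cKO, 0 to 3 for Irf7 against cKO and 6 to 7 for Sting against WT. Day 8 cKO groups left with 1 library were assumed to vary like the others. Day 8 had the lowest depth.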

Other observations

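The labels put 2 day 8 libraries in no group. The first, titled as treated with IFNg but with a library name that does not mention it, held Parp14 at 378.5 CPM, Parp12 at 125.8 CPM, Parp11 at 44.8 CPM, Parp1 at 133.9 CPM and Parp3 at 24.4 CPM. The second, titled as untreated but with a library name of IFNg for 12 h, held Parp14 at 1946 CPM, Parp12 at 761.5 CPM, Parp11 at 326.9 CPM, Parp1 at 42.0 CPM and Parp3 at 186.2 CPM.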
